A study of Mus musculus with 3 samples.

Results

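The membrane transporter genes described here are Abcb1a, Abcb1b, Abcb4, Abcc1, Slc15a2 and Slc29a2, 6 of the 38205 gene identifiers in the deposited tables. They were taken by symbol, with an estimate status of OK in all 3 libraries and the highest row of each identifier, and all 6 met these conditions. They were chosen by their function and by the ratios between genotypes in an earlier reading of the same tables. Their differences between genotypes are therefore given as a description. The 6 genes encode 4 ATP-binding cassette (ABC) transporters, 1 peptide carrier and 1 nucleoside carrier, so Slc29a2 is neither an efflux pump nor a peptide transporter.

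RNA was isolated from LSK cells sorted out of fetal livers at E14.5, from mice of the C57Bl/6 strain. LSK cells lack lineage markers and display Sca1 and c-Kit, a surface phenotype shared by blood stem cells and multipotent progenitors. The groups were embryos homozygous for a DNMT3B7 transgene, embryos hemizygous for it, and wild-type (WT) embryos. DNMT3B7 is a truncated version of DNMT3B, an enzyme that places new methyl groups on DNA. The promoter that drives the transgene is not given in the sources used here. Each genotype had 1 library, made from cells pooled from 4 to 5 embryos, so every difference below is between single libraries and has no replicate. The 3 comparisons share libraries and are not independent of each other.

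ABC transporters use ATP to move substrates across membranes. P-glycoprotein, encoded in the mouse by the close paralogs Abcb1a and Abcb1b, exports many hydrophobic drugs and dyes. Blood stem cells are known for keeping dyes out, a property used to isolate them as the side population. The pump best known for this in the mouse is encoded by Abcg2, which is not among the members. Solute carriers of the SLC15 and SLC29 families instead let peptides and nucleosides cross the membrane, SLC15 proteins with protons and SLC29 proteins down the concentration gradient.

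Abcb1a, Abcb1b and Abcb4 stand side by side, in this order and on the + strand, on chromosome 5. Their annotated coding sequences have the same length, 3831 bases. Aligned, the coding sequences of Abcb1a and Abcb1b were identical at 88.0% of 3822 positions, those of Abcb1a and Abcb4 at 75.3% of 3789 and those of Abcb1b and Abcb4 at 73.7% of 3792. The longest run without a difference was 338 bases between Abcb1a and Abcb1b and 110 bases between Abcb1a and Abcb4. A part of the run shared by Abcb1a and Abcb1b, around the codons of the ABC signature, is shown because a read that falls wholly inside it matches both P-glycoprotein genes. It covers coding bases 1504 to 1653 of Abcb1a and 1513 to 1662 of Abcb1b and of Abcb4, and capitals mark bases that differ from Abcb1a.
Abcb1a: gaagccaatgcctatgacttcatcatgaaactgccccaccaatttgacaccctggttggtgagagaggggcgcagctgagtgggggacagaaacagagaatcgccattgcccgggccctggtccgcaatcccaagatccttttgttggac
Abcb1b: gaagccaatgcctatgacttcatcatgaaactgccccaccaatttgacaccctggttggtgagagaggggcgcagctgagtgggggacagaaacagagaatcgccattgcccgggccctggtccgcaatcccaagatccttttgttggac
Abcb4: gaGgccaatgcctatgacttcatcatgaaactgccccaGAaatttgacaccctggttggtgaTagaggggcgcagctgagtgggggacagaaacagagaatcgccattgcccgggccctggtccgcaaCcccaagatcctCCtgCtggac
Over these 150 bases Abcb1b had 0 differences from Abcb1a and Abcb4 had 8. Of all 50-base stretches of the annotated Abcb1a transcripts, 16.3% also occur in transcripts of Abcb1b and 2.33% in those of Abcb4. Stretches shared with any other gene made up 22.5% for Abcb1a, 12.8% for Abcb1b, 2.87% for Abcb4, 0.576% for Abcc1, 0.534% for Slc15a2 and 0% for Slc29a2. How reads with several matches were divided is not given in the sources used here, so the values of Abcb1a and Abcb1b are uncertain. The shares do not measure by how much. Of the Abcb1b stretches, 11.1% also occur in transcripts of Abcb1a, the gene with the lower value in every library. Shared reads can thus weigh more on Abcb1a than its own share tells.

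Promoter sequences are shown for 3 members because the transgene encodes a form of an enzyme of DNA methylation, which in mammals falls mainly on CpG dinucleotides. Methylation itself was not measured. Each window runs from 250 bases before to 50 bases after the RefSeq gene start on build GRCm38.p6, 5′ to 3′ on the strand of the gene, and capitals mark CpG dinucleotides. Slc15a2 lies at chr16:36784913-36785212 on the - strand, Abcb1b at chr5:8797897-8798196 on the + strand and Abcb4 at chr5:8893471-8893770 on the + strand. Slc15a2 is the member whose libraries differed most, and Abcb1b and Abcb4 are neighbours with different levels.
Slc15a2: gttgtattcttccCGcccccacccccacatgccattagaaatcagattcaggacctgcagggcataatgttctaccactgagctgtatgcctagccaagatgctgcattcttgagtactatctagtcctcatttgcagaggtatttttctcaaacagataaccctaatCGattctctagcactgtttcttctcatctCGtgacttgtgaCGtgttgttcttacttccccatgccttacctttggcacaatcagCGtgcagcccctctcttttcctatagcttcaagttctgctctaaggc
Abcb1b: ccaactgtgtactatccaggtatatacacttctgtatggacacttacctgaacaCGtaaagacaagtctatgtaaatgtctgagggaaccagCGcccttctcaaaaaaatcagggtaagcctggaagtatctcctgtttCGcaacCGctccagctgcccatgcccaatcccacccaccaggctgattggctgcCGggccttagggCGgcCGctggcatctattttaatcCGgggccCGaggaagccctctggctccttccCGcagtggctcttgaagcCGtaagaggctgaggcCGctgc
Abcb4: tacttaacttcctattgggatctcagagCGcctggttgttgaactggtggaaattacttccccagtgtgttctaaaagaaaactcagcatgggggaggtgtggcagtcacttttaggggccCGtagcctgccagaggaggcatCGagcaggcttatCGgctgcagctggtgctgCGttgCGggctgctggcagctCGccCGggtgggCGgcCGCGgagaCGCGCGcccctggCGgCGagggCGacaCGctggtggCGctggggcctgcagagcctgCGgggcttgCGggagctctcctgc
The Slc15a2 window held 5 CpG dinucleotides, and 43.6% of the 32851 RefSeq promoter windows of this length held at most as many. The Abcb1b window held 12, the Slc29a2 window 20 and the Abcb4 window 21, against a median of 7 over all windows. GC content was 46.3% in the Slc15a2 window, 55.0% for Abcb1b, 61.7% for Slc29a2 and 64.0% for Abcb4. The Abcb1a window held 2 CpG dinucleotides, but its RefSeq start lies 92986 bases upstream of the GENCODE start of the gene, so it may not be the promoter in use in these cells. The letters CCAAT, searched on both strands, were found 2 times in the Abcb1b window and 1 time in the Abcb4 window, and occur in 37.4% of all windows. GGGCGG was found 1 time each in the windows of Abcb1b, Abcb4, Slc15a2 and Slc29a2, and occurs in 35.7% of all windows. TATAAA was found in none of these 5 windows and occurs in 13.6% of all. Sequence matches are descriptions of these windows.

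All levels are deposited FPKM, a value per transcript length, divided by 1 factor common to the 3 libraries, and are called values. Many genes that all cells use are listed at or near 0 in these tables. Eef1a1, a translation factor gene, was at 0 in every library, and Kit, in cells sorted for its protein, was at 0.41 (homozygous), 0.73 (hemizygous) and 0 (WT). Values over much of the genome may therefore not belong to the gene they are listed for, and each value below is that of the row listed under the gene's name. Comparisons were restricted to 10 chromosome segments that hold runs of high values, and to mitochondrial genes, 1454 genes in all. All 6 members lie in such segments, on chromosome 5 up to Dmtf1, chromosome 16 up to Morc3 and chromosome 19 up to Rasgrp2. On chromosome 5 the segment ends close by: Abcb4, Abcb1b and Abcb1a stand 3, 4 and 5 protein-coding genes before Dmtf1, its last gene. The end of each segment is an estimate, and that the rows of these 3 genes hold their own reads was not tested. Of constitutive genes, 25 of 28 inside the segments were high, against 15 of 437 outside, where 192 were listed at 0 in all libraries. Kit and Ly6a, which encode the c-Kit and Sca1 proteins of the sort, lie outside, as does Abcg2, the pump best known for dye exclusion by mouse stem cells, so the sort was not checked on them and Abcg2 was not analysed here. Of 11 markers of the sort and of stem cells, Runx1 was the only 1 inside the segments. Its value was 132 in the homozygous, 153 in the hemizygous and 152 in the WT library. Runx1 does not stand for the whole list. The low values implied about 2370000 fragments, small RNA genes left out, in the homozygous, 3110000 in the hemizygous and 3140000 in the WT library. Taking the longest transcript instead of the median length gave 4860000 (homozygous), 6040000 (hemizygous) and 5800000 (WT), so the depth is known only roughly and the order of the hemizygous and the WT library is not settled. Intervals below are 95% intervals from the fragments estimated in this way and cover counting error only.

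Abcb4 and Abcc1 were the most abundant of the 6 in every library, and Abcb1a was the least. Abcb4 encodes the pump that moves phosphatidylcholine to the outer membrane leaflet and is known for its part in bile formation. Its value was 97.9 in the homozygous, 103 in the hemizygous and 95.9 in the WT library. Abcc1, a pump that exports glutathione conjugates and leukotriene C4, was at 93.8 in the homozygous, 93.7 in the hemizygous and 83.0 in the WT library. The counting intervals of these 2 genes overlapped in the homozygous and the hemizygous library. In the WT library they did not, at 90.1 to 102 for Abcb4 and 77.5 to 88.8 for Abcc1. Both stood above at least 67.4% of the 1061 nuclear protein-coding genes of the segments in each library.

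Within the chromosome 5 cluster the level increased from Abcb1a to Abcb1b to Abcb4 in all 3 libraries. Abcb1b was at 36.5 in the homozygous, 30.04 in the hemizygous and 24.8 in the WT library. Abcb1a was at 5.58 in the homozygous, 5.37 in the hemizygous and 6.06 in the WT library. The 3 libraries of Abcb1a lay close together, and its counting intervals overlapped among all of them. The ratio of Abcb1b to Abcb1a was 6.54 in the homozygous, 5.60 in the hemizygous and 4.09 in the WT library. It depends on how reads shared by both genes were divided. Of the summed value of the 3 genes, Abcb4 held 70.0% in the homozygous, 74.4% in the hemizygous and 75.7% in the WT library, and Abcb1a held 3.99% (homozygous), 3.88% (hemizygous) and 4.78% (WT).

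**Figure D1:**
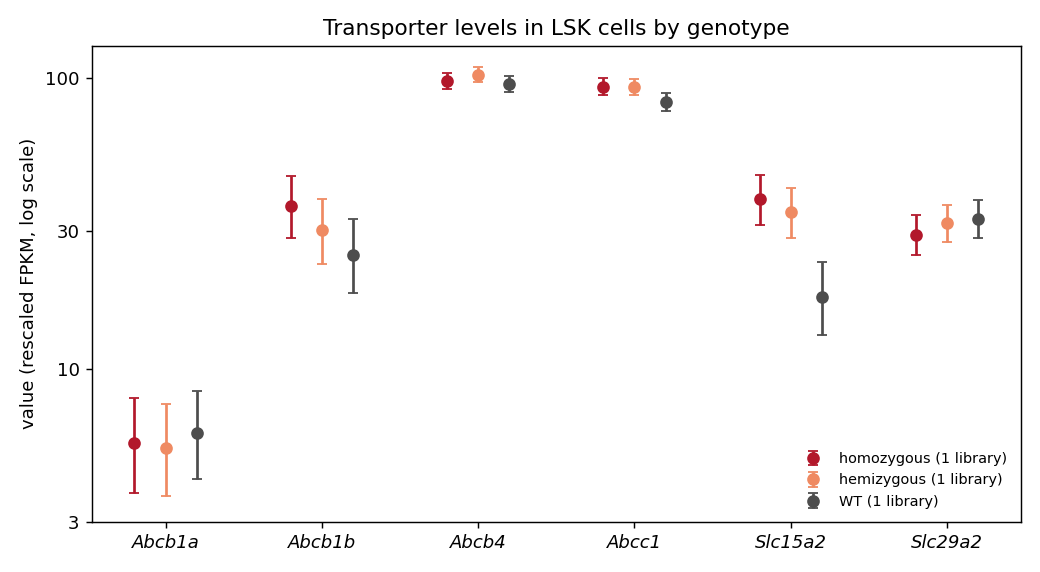
Values (rescaled FPKM, log axis) of the 6 transporter genes in the homozygous, hemizygous and WT library, 1 library each, with 95% Poisson intervals of the estimated fragments. Abcb4 and Abcc1 are highest and Abcb1a lowest in each library, and the homozygous (38.5) and hemizygous (34.7) values of Slc15a2 lie above the WT value (17.7).

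The uptake carriers changed places in the order of levels. Slc15a2 encodes a high-affinity, proton-driven carrier of di- and tripeptides known from kidney and brain. It was at 38.5 in the homozygous, 34.7 in the hemizygous and 17.7 in the WT library. The intervals of the homozygous (31.4 to 46.7) and the hemizygous library (28.3 to 42.1) did not reach that of the WT library (13.2 to 23.4). Slc29a2, an equilibrative carrier of nucleosides and nucleobases, was at 29.1 in the homozygous, 31.8 in the hemizygous and 33.0 in the WT library, with overlapping intervals. Slc15a2 thus came right after Abcb4 and Abcc1 in both transgenic libraries, and stood above Abcb1a alone in the WT library. Slc29a2 stood above Abcb1a alone in the homozygous library and came right after Abcb4 and Abcc1 in the WT library. Adjacent genes among these middle places, which Slc15a2, Abcb1b and Slc29a2 filled in every library, had overlapping intervals. With the longest transcript in place of the median transcript length, adjacent places separated between Abcb1b and Slc29a2 in the homozygous and the WT library, between Abcb1b and Slc15a2 in the WT library, and between Abcb4 and Abcc1 in the hemizygous library.

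In homozygous against WT cells, Slc15a2 and, by less, Abcb1b had higher values, and the other 4 members stood within 0.18 of 0 on the log2 scale. A gene counted as higher or lower when the log2 ratio of value + 1 was at least 1 in size, which understates the change of low genes. Of the 6 members, 1 was higher and 0 were lower by this rule. Of all 955 genes compared, 4.4% passed the rule, with 20 higher (2.09%) and 22 lower (2.3%). The rule that chose the members used these ratios, so nothing is read from their count. Under sum scaling, with each library set to the same sum, mitochondrial genes included, the split over all genes was 44 higher and 12 lower. Mitochondrial genes held 64.8% (homozygous), 72.0% (hemizygous) and 74.9% (WT) of the summed value of the genes to which comparisons were restricted. The nuclear genes among them summed to 206920 (homozygous), 210338 (hemizygous) and 217513 (WT). Slc15a2 had a log2 ratio of 1.08, which placed it 19th from the top of the 955 genes. Its plain ratio was 2.17 (interval 1.53 to 3.10).

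The other 5 members lay between -0.18 and 0.54 on the same log2 scale in this comparison. The ratio of Abcb1b was 0.54, higher than that of 94.5% of the genes compared, and its plain ratio was 1.47 (1.00 to 2.17). With the longest transcript that interval was 1.29 to 1.67. Abcc1 had a log2 ratio of 0.17 and a plain ratio of 1.13 (1.03 to 1.24). Abcb4 had a log2 ratio of 0.03 and a plain ratio of 1.02 (0.93 to 1.12). Abcb1a, at -0.10, rested on an estimated 29.8 fragments in the homozygous and 34.2 in the WT library, and its plain ratio of 0.92 had an interval of 0.54 to 1.55. With the longest transcript these were 102 and 117 fragments, in the homozygous and the WT library, and an interval of 0.70 to 1.21. Slc29a2 was at -0.18, with a plain ratio of 0.88 (0.71 to 1.10). The median log2 ratio of the 6 was 0.10, against -0.04 over all genes compared. Sum scaling, which adds 0.41 to the log2 ratio of a well expressed gene, turned the signs of Abcb1a (0.25) and Slc29a2 (0.22).

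**Figure D2:**
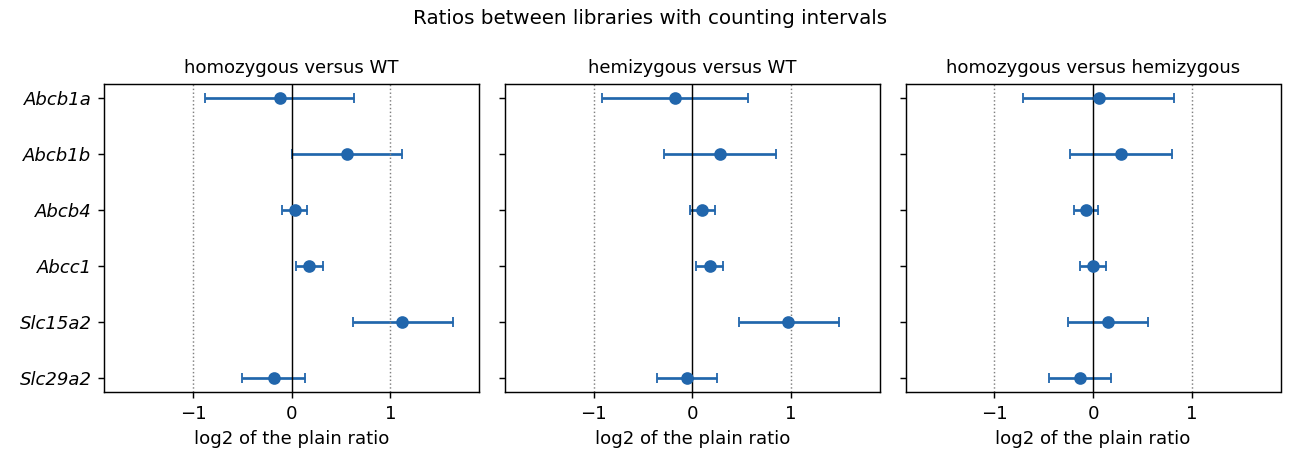
Log2 of the plain ratio between libraries for the 6 transporter genes in the 3 comparisons, with 95% counting intervals, and dotted lines at -1 and 1. The intervals of Slc15a2 lie above 0 in both comparisons with WT (plain ratios 2.17 and 1.95) and span 0 between the transgenic libraries (1.11).

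Hemizygous cells differed from WT cells most in Slc15a2 among the members. By the size rule 0 of the 6 passed, and of 954 genes 2.73% did, 17 higher (1.78%) and 9 lower (0.943%), or 21 and 6 under sum scaling. Slc15a2 came nearest, with a log2 ratio of 0.93 and a plain ratio of 1.95 (1.38 to 2.80), 20th from the top. It passed the rule (1.07) under sum scaling. Abcc1 was at 0.17 with a plain ratio of 1.13 (1.03 to 1.24), as in the homozygous library. Abcb1b was at 0.27, with a plain ratio of 1.21 (0.82 to 1.80), an interval that excluded 1 only with the longest transcript (1.06 to 1.38). Abcb4 was at 0.10, Slc29a2 at -0.05 and Abcb1a at -0.15, each with an interval that included 1. The sign of Slc29a2 turned under sum scaling (0.09). The median of the 6 was 0.14, against 0.02 over all genes compared.

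Between the homozygous and the hemizygous library, 0 of the 6 members passed the rule, and of 962 genes 4.57% did, 16 higher (1.66%) and 28 lower (2.91%), or 30 and 16 under sum scaling. Slc15a2 differed by a log2 ratio of 0.15 and a plain ratio of 1.11 (0.84 to 1.47). Abcb1b was at 0.27, with a plain ratio of 1.21 (0.85 to 1.74) and an interval of 1.08 to 1.37 with the longest transcript. Abcc1 was at 0.00, with a plain ratio of 1.00 (0.91 to 1.10). Abcb1a was at 0.05, Abcb4 at -0.07 and Slc29a2 at -0.13, and under sum scaling the last 2 turned to 0.19 and 0.13. The median of the 6 was 0.02, against -0.06 over all genes compared.

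**Figure D3:**
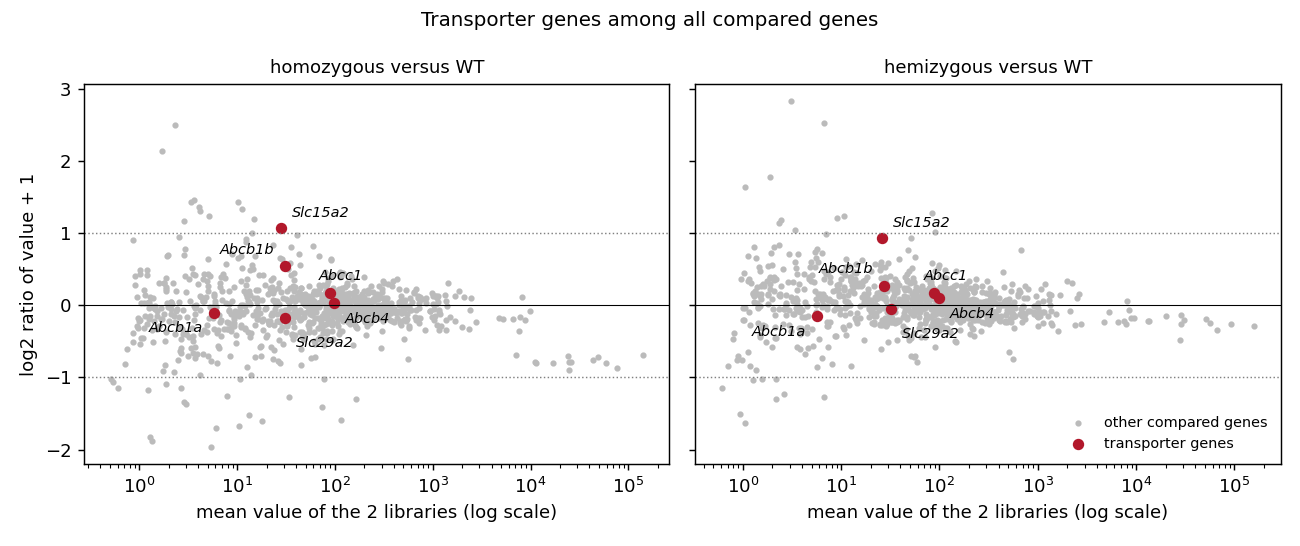
Log2 ratio of value + 1 against the mean value of both libraries (log axis) for all compared genes, for homozygous versus WT and hemizygous versus WT, with the 6 transporter genes in red. Slc15a2 lies at the upper edge of the genes of its level in both plots (1.08 and 0.93), and Abcb1a, Abcb4, Abcc1 and Slc29a2 lie among the bulk.

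Adjacent genes were set beside the members. Rundc3b, before Abcb1a on chromosome 5, was at 6.09 in the homozygous, 5.52 in the hemizygous and 5.51 in the WT library. Crot, a peroxisomal carnitine acyltransferase after Abcb4, was at 122 in the homozygous, 132 in the hemizygous and 112 in the WT library. Their log2 ratios of homozygous to WT were both 0.12, against 0.54 for Abcb1b between them. The neighbours of Slc15a2 were low, with Eaf2 at 4.15 in the homozygous, 6.21 in the hemizygous and 5.68 in the WT library, and Ildr1 at 0.49 (homozygous), 1.43 (hemizygous) and 0.49 (WT). The processed pseudogene Gm8425, named after its values were seen, lies within Slc15a2 on the other strand and shares 0 exon bases with it. It was at 206 in the homozygous, 192 in the hemizygous and 199 in the WT library, a pattern unlike that of Slc15a2. An antisense gene that shares 143 exon bases with Abcb1b stood below 1 in each library. B3gnt1, after Slc29a2, and Fopnl, before Abcc1, had log2 ratios of homozygous to WT of -0.09 and -0.15, and the genes on the other side of these members, Npas4 and A630010A05Rik, were at 0 in the homozygous and the WT library and at most 0.26 in the hemizygous library.

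**Figure D4:**
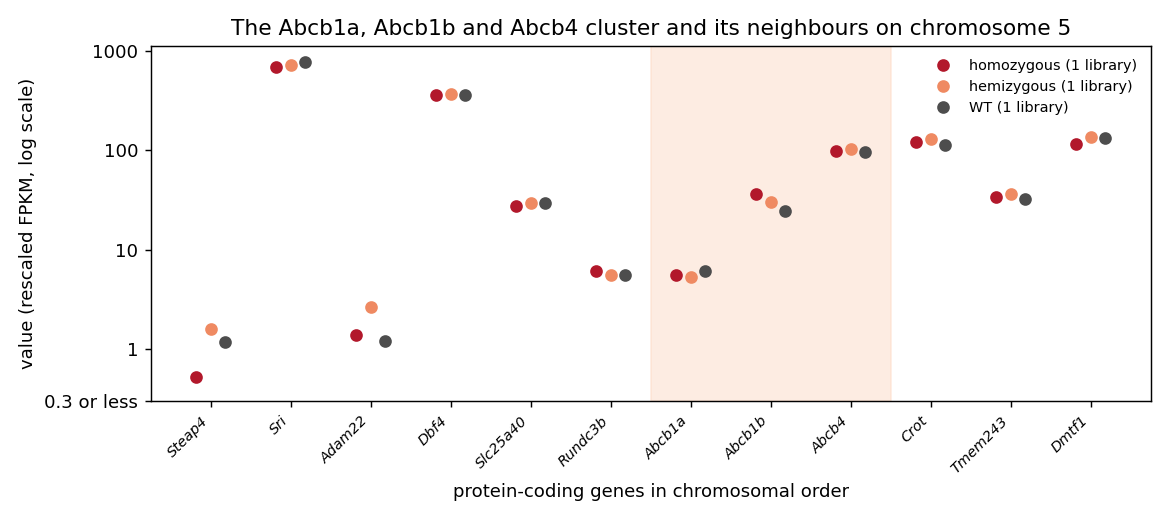
Values (log axis) of Abcb1a, Abcb1b and Abcb4 (shaded) and the protein-coding genes around them in chromosomal order, in the homozygous, hemizygous and WT library, 1 library each. The level climbs from Abcb1a (5.58 homozygous, 6.06 WT) to Abcb4 (97.9 homozygous, 95.9 WT), and the libraries separate most at Abcb1b among the 3.

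Few other genes of these families could be read. Of the 53 ABC genes listed, 6 lay in the segments, the 4 members, Abcc5 and Abcf3, and 0 of the 6 passed the rule in any comparison. Of all genes compared, 4.4% (homozygous versus WT), 2.73% (hemizygous versus WT) and 4.57% (homozygous versus hemizygous) passed. The 4 members were chosen with their ratios known, so nothing is read from this count. Abcc5, a pump of cyclic nucleotides and other organic anions, was at 101 in the homozygous, 95.4 in the hemizygous and 99.4 in the WT library. Abcf3, an ABC protein without membrane-spanning parts, was at 169.9 in the homozygous, 189.5 in the hemizygous and 186 in the WT library. Slc15a2 was the only 1 of 5 peptide carriers and Slc29a2 the only 1 of 7 nucleoside carriers in the segments. Of 385 solute carrier genes 15 were in the segments, and 9 of them were compared. Slc15a2 was 1 of these 9 and the only 1 that passed the rule, in the homozygous against the WT library, where 4.4% of all genes compared passed. It was chosen with this ratio known, so nothing is read from that count.

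The solute carriers outside the members had small ratios for the most part. Slc25a1, the mitochondrial citrate carrier, was at 363 in the homozygous, 388 in the hemizygous and 383 in the WT library. Of the mitochondrial carrier family, Slc25a45 was at 289 (homozygous), 344 (hemizygous) and 304 (WT). Slc25a40, of the same family, was at 27.8 (homozygous), 29.3 (hemizygous) and 29.7 (WT). Slc35a5, a Golgi nucleotide sugar carrier family member, was at 39.6 (homozygous), 38.4 (hemizygous) and 37.8 (WT). Their log2 ratios to WT all lay within 0.18 of 0. Slc12a8 was at 14.3 (homozygous), 11.9 (hemizygous) and 12.8 (WT), and Slc5a3, the myo-inositol carrier, at 13.2 (homozygous), 14.3 (hemizygous) and 12.6 (WT). Slc7a4 was at 5.38 in the homozygous, 8.26 in the hemizygous and 4.58 in the WT library, a log2 ratio of 0.73 for hemizygous versus WT. Of the glutathione genes, whose products supply substrates of Abcc1, Gstp1 was at 919 in the homozygous, 930.2 in the hemizygous and 1033 in the WT library and its near-identical copy Gstp2 at 631 (homozygous), 655 (hemizygous) and 725 (WT). These 2 were the only 2 of 30 in the segments. Of 19 nucleoside salvage genes none was in the segments, and of 9 genes of canalicular bile transport Abcb4 was the only 1.

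**Figure D5:**
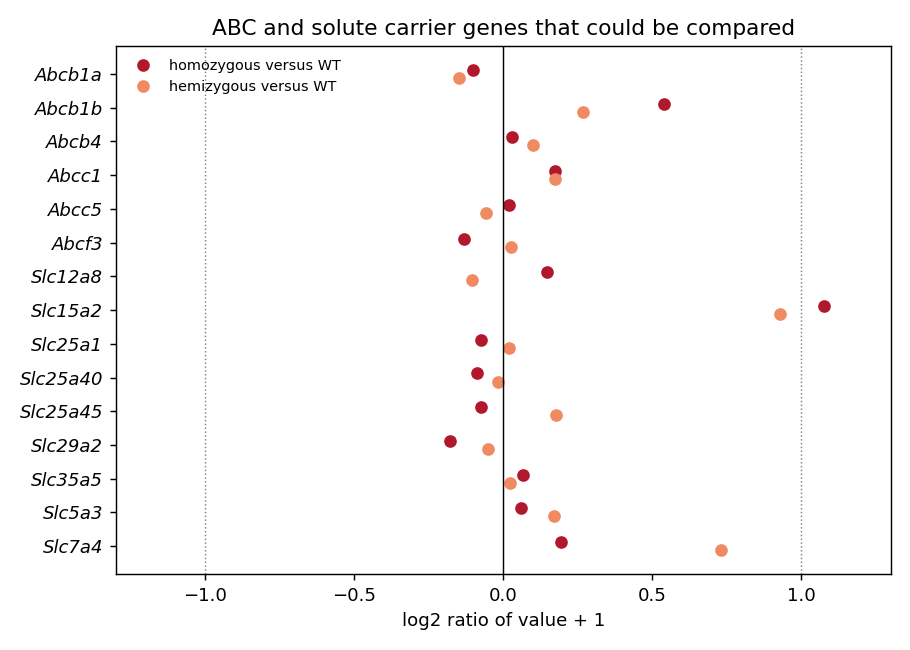
Log2 ratio of value + 1 for the ABC and solute carrier genes in the segments with a value of at least 5 in a library, homozygous versus WT in red and hemizygous versus WT in orange. Slc15a2 (1.08 and 0.93) stands to the right of the others in both, and Slc7a4 (0.73) is next in the hemizygous comparison.

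Genes with the most similar pair of ratios to WT were looked for among 803 genes that reached a value of 5, by the distance between their pairs of log2 ratios, which rests on 3 libraries. The nearest to Slc15a2 were A330021E22Rik at a distance of 0.32 and Cers4, a ceramide synthase, at 0.36. Cers4 was at 77.1 in the homozygous, 69.6 in the hemizygous and 43.2 in the WT library. The nearest to Abcb1b were the transcription factor gene Etv5 and the sterol synthesis gene Cyp51, both at 0.10. Etv5 was at 112 in the homozygous, 84.8 in the hemizygous and 71.9 in the WT library. For the other 4 members the nearest genes lay within 0.014, as many genes have ratios near 0: Cdc16 and Ccdc58 for Abcb1a, Rock1 and Smpd4 for Abcb4, Lrfn4 and Pcid2 for Abcc1, and 2310008H04Rik and Tmem186 for Slc29a2.

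Markers of other cell types moved between the libraries too. Of 12 vessel wall markers 3 were in the segments, with a summed value of 101 in the homozygous, 70.0 in the hemizygous and 54.2 in the WT library, mostly from Col4a1 and Col4a2. Cldn5, the remaining vessel wall marker, was at 2.14 (homozygous), 1.93 (hemizygous) and 1.63 (WT). Of 8 megakaryocyte markers 2 were in the segments and summed to 34.9 (homozygous), 20.8 (hemizygous) and 22.0 (WT). These 2 did not move together: Gp5 was at 30.1 (homozygous), 17.7 (hemizygous) and 16.5 (WT), and Gp1bb at 4.76 (homozygous), 3.09 (hemizygous) and 5.50 (WT). Of 10 lymphoid progenitor markers 3 were, Igll1, Vpreb1 and Vpreb2, all on chromosome 16. They summed to 192 (homozygous), 400.4 (hemizygous) and 517 (WT). All 3 were lower by the size rule in the homozygous against the WT library, where 2.3% of all genes compared were. The other lymphoid progenitor markers could not be read, so these 3 do not stand for the whole list. Against the hemizygous library 2 of the 3 were lower in the homozygous library, where 2.91% of all genes compared were. Of 16 hepatocyte markers 4 were, and summed to 4.81 (homozygous), 3.82 (hemizygous) and 4.27 (WT), with Fetub and Hrg at 0 in each library. Of 11 erythroid markers 4 were, and summed to 3285 (homozygous), 4012 (hemizygous) and 3987 (WT), mostly from Car2 and Tfrc. Their log2 ratios of homozygous to WT were -0.30 for Car2, -0.34 for Tfrc, -0.11 for Cpox and 0.24 for Car1, and of hemizygous to WT -0.07 for Car2 and 0.14 for Tfrc. Mmp8, the only 1 of 12 macrophage and granulocyte markers, was at 1.61 (homozygous), 3.64 (hemizygous) and 3.41 (WT). Slc15a2, Abcb1b and the vessel wall markers were each lowest in the WT library, but so were Abcb4, Abcc1, Gp5 and Car1. Log2 ratios of homozygous and of hemizygous to WT were 1.08 and 0.93 for Slc15a2. They were 0.80 and 0.30 for Col4a1, and 0.97 and 0.41 for Col4a2. The part of these cell types in the differences was not tested. More RNA per cell and more cells of a type cannot be told apart in pooled RNA.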

How the data were processed

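RNA-seq values of 1 library per genotype were deposited as FPKM per gene, with a status, per the file headers. The submitters' processing notes name TopHat2, Bowtie2, Cufflinks and build mm9, with no versions. The sources used here give neither the annotation nor the strand setting. GENCODE M21 (GRCm38), which holds 95.4% of the 38205 identifiers, gave gene order, transcripts and lengths. Promoters are from RefSeq (GRCm38.p6), with an entry for 5 of the 6 members, Abcc1 being the other. Coding sequences were aligned with MAFFT.

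Deposited sums were far above what FPKM allows, so all libraries were divided by 1 common factor, which leaves plain ratios as deposited. The log2 ratio of value + 1, and with it the genes that pass the size rule, does depend on this factor. Segments were found by a break per chromosome, fitted to which coding genes reached 200000 FPKM on average. They needed a log likelihood gain of at least 5 and at least 0.25 of genes high before the break. These settings were chosen while the values were in view. Constitutive genes and clustered gene families stayed out of the fit.

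Genes were compared when the status was OK in both libraries and a value reached 1. The pseudocount was 1. In genes with a single transcript, low values times length were compared with whole multiples of a unit. Within 0.05 of a whole multiple lay 74.0% of 720 values in the homozygous, 70.8% of 774 in the hemizygous and 72.6% of 711 in the WT library. The unit was chosen in each library to make this share as large as possible. Chance gives 10% for a unit fixed beforehand, and more for a unit chosen in this way. This unit was read as 1 fragment (assumed length 200 bases), and fragments per gene came from the median transcript length, so depth and intervals are approximate. The median length was 690 bases for Abcb1b, 901 for Slc15a2 and 1599.5 for Abcb1a. The longest transcripts of Abcb1b, Slc15a2 and Abcb1a had 4306, 3994 and 4997 bases, and using them narrowed the intervals of these genes. Levels have Poisson intervals, and plain ratios have exact conditional (Clopper-Pearson) intervals. With 1 library per genotype there was no test and no p-value.

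The members and lists were chosen with earlier results of these data known. Genes named were the members, listed genes and solute carriers in the segments with a value of at least 5 or past the size rule, adjacent genes, the 2 most similar genes per member, and markers of other cell types. Scalings, pseudocounts, minimum values, gene sets, transcript lengths and repeated rows were varied. The steps were run on simulated data with Python 3.11.15, SciPy 1.17.1 and pandas 2.3.3. The simulated counts used the same transcript lengths, fragment length and unit, so this run could not test whether those are right. It held no reads shared between genes.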

Additional observations from a re-analysis of the deposited data

How the results depend on the processing

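The member counts changed in 2 settings. Slc15a2 fell short of the rule in the homozygous against the WT library with a pseudocount of 5, which left 0 of 6 members, and passed it in the hemizygous against the WT library under sum scaling, which gave 1 of 6. The counts over all genes compared were 42 (homozygous versus WT), 26 (hemizygous versus WT) and 44 (homozygous versus hemizygous). In this order they were 10, 4 and 9 with a pseudocount of 5, and 22, 8 and 19 with a minimum value of 5. With every listed gene, small RNA genes left out, they were 953, 1098 and 1131, a set in which most genes lie outside the segments. With a pseudocount of 0.1 the last 2 were 43 and 74. Median-ratio scaling, equal sums of nuclear genes, no minimum and summed rows kept every count within 1.5 times. Sum scaling with the mitochondrial genes, which shifts ratios by up to 0.41, 0.15 and 0.27, gave splits of 44 higher with 12 lower, 21 with 6, and 30 with 16. It moved 7 of the 18 member ratios by more than their counting error, all upward, and no other setting moved any. Longest transcripts made 3 more intervals exclude 1, those of Abcb1b in the hemizygous against the WT library and in the homozygous against the hemizygous library, and that of Abcb4 in the hemizygous against the WT library (lower bound 1.00). No paired analysis was possible because each genotype had 1 library.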
